A study of Mus musculus with 6 samples.

Results

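The genes described here are 9 glutathione transferase genes of mouse neurospheres, of 19937 genes measured: Gstm1, Gstm2, Gstm4, Gstm5, Gstm6 and Gstm7 of the mu class, Gsta4 of the alpha class, and the microsomal genes Mgst1 and Mgst3. They were selected on gene family while the difference between the treatments was already known from the same 6 arrays, so their differences are given as a description, without a test over the family. Neurospheres are floating colonies that grow from single precursor cells in culture. These were primary neurospheres, called small in the labels, from the hippocampus of adult male C57BL/6J mice, 8 to 12 weeks old, grown in medium with EGF and bFGF and collected on day 14. On 3 arrays the medium also held 10 µM norepinephrine (N), and on 3 arrays it held 15 mM potassium chloride (K), with 1 array per biological replicate. There is no array of spheres grown with neither agent, so each difference is N minus K and does not tell which agent moved a gene. How many animals each replicate pooled is not given in the sources used here, and p-values measure only the spread between these samples.

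Glutathione transferases are enzymes that join the tripeptide glutathione to reactive, electrophilic molecules, which makes these easier to export from the cell. The mu class enzymes are soluble dimers encoded by a row of neighbouring genes. Gsta4 encodes a soluble enzyme that acts with preference on aldehydes formed when lipids are oxidised. Mgst1 and Mgst3 encode unrelated membrane proteins of the same chemistry, which also reduce lipid peroxides. In the rodent brain mu class protein is found mainly in astrocytes. Several transferase genes respond in rodents to the transcription factor NRF2, which binds the antioxidant response element.

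Values are log2 units of the robust multi-array average (RMA), 1 per transcript cluster, the set of probes that covers 1 transcribed region. Each of the 9 genes had exactly 1 cluster named for it alone. The array medians lay between 6.30 and 6.40. K replicate 3 had the lowest mean correlation with its own group over all clusters (r = 0.948). K replicate 2 lay closer to the N arrays (mean r = 0.969) than to the other K arrays (mean r = 0.954), and for K replicate 1 both means were near each other (0.955 and 0.954). These are correlations across clusters, which are not independent replicates. The model was limma over all genes, with p-values adjusted over all of them. It called 31 genes (0.155% of those tested), 24 higher with N and 7 higher with K. After quantile normalization these numbers were 7 and 5, after cyclic loess normalization 8 and 4, and after centring each array on its median 2 and 1. Leaving out K replicate 1 brought the total to 0, as did leaving out either N replicate 1 or N replicate 2, while 4 genes were called without N replicate 3 and 9 without K replicate 3. None of the 9 transferase genes was among the 31, nor among those called by an ordinary linear model, and 4 of the 9 had an unadjusted p under 0.05 in limma, as had 1702 of all genes.

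All 6 mu class genes had higher means with N, and in 5 of them every N array lay above every K array: Gstm1, Gstm2, Gstm4, Gstm6 and Gstm7. Over all genes this pattern was met by 5.78%, and the opposite one, with every N array below every K array, by 7.55%. Of the 9 genes 8 had a log2FC above 0, against 43.0% of all genes. Since this difference was in view when the genes were chosen, nothing further is read from these shares. The median log2FC was 0.45 for the 6 mu class genes, 0.08 for Gsta4, Mgst1 and Mgst3, and -0.03 over all genes.

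Gstm6, a mu class enzyme gene, stood apart from the rest. Its values were 7.29, 7.60 and 6.98 on N arrays 1 to 3 and 4.63, 5.98 and 5.62 on K arrays 1 to 3. The lowest N array was thus 1 log2 unit above the highest K array, and K replicate 1 lay far below the other K arrays. Its log2FC was 1.88 (standard error 0.32, n = 3 arrays per group), a 3.68-fold difference and the 9th highest log2FC of all genes. All 3 K values lay below the median of all clusters, 6.34, and whether they were above background was not measured, so the fold and the rank hold for the deposited values only. It was 1.49 without K replicate 1 and 1.98 without K replicate 3, and over all 6 arrays left out in turn it ran from 1.49 to 2.17. The whole-table adjusted p of Gstm6 was 0.0956 in limma.

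Gstm1, a main hepatic form in mice, had 11.49, 11.39 and 11.47 on the N arrays and 11.07, 11.04 and 10.76 on the K arrays. The N arrays lay close together, and K replicate 3 was the lowest of the K arrays. The log2FC was 0.49 (standard error 0.13), or 1.40-fold, and 0.39 without K replicate 3. Gstm4 had 6.21, 6.07 and 5.82 with N and 5.46, 5.58 and 5.53 with K. Here the spread was among the N arrays (SD 0.20) rather than the K arrays (SD 0.06), and the groups did not overlap. The log2FC was 0.51 (standard error 0.13), or 1.43-fold, close to that of Gstm1. Unlike those of Gstm1, all Gstm4 values lay below the median of all clusters, 6.34. Whether they were above background was not measured, so this fold holds for the deposited values only.

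Gstm7 had 9.02, 9.27 and 9.37 with N and 8.55, 9.02 and 8.87 with K, so N replicate 1 and K replicate 2 were level to 2 decimals. Its log2FC was 0.41 (standard error 0.16), and 0.28 without K replicate 1, the lowest array. Gstm5, which in rodents is known from brain and testis, had 10.15, 10.48 and 10.50 with N and 9.90, 10.31 and 10.06 with K. The groups overlapped, because K replicate 2 was above N replicate 1. The log2FC was 0.29 (standard error 0.16). Gstm2 had the smallest difference of the class, with 5.71, 5.70 and 5.61 on the N arrays, against 5.44, 5.53 and 5.54 on the K arrays. Its log2FC was 0.17 (standard error 0.11), and the groups did not overlap. All Gstm2 values also lay below 6.34, the median of all clusters, and whether they were above background was not measured. Within these 6 genes the lowest K value was that of K replicate 1 in Gstm2, Gstm4, Gstm5, Gstm6 and Gstm7, and that of K replicate 3 in Gstm1.

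**Figure D1:**
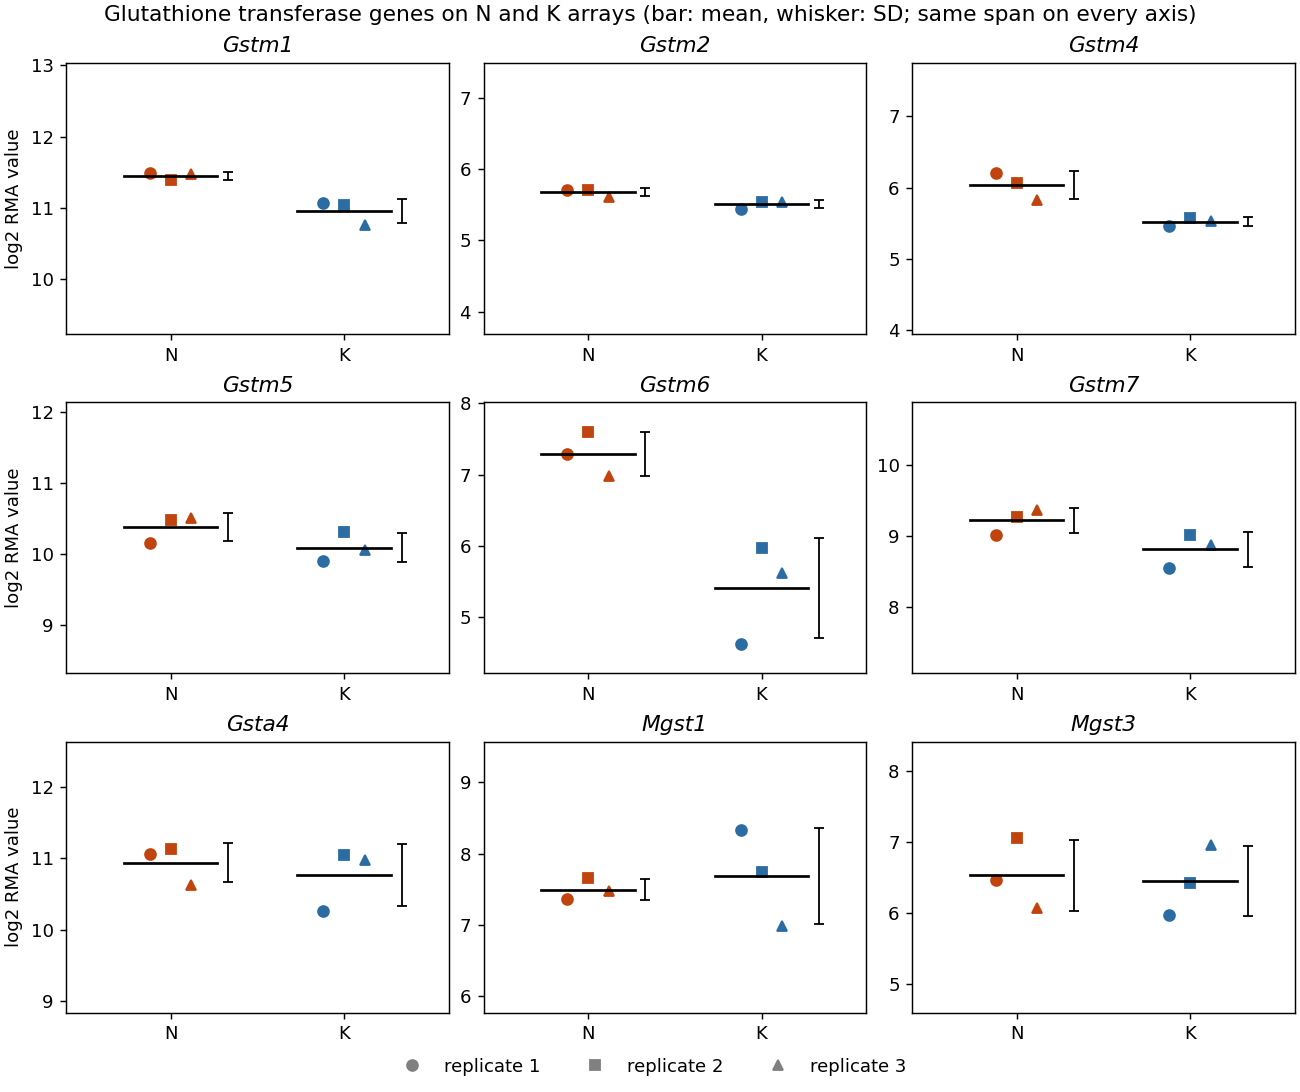
Log2 RMA values (vertical axis, the same span in each panel) of the 9 genes on the N arrays (left, n = 3) and the K arrays (right, n = 3), with a bar at the mean, a whisker for the SD and a marker shape for the replicate. Gstm6 shows the widest gap, between 6.98 on the lowest N array and 5.98 on the highest K array, while Gsta4, Mgst1 and Mgst3 overlap.

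The other 3 genes did not share this pattern. Gsta4 had 11.06, 11.13 and 10.63 with N and 10.26, 11.05 and 10.98 with K. A single low array in each group, N replicate 3 and K replicate 1, set the spread. Its log2FC was 0.17 (standard error 0.23) and turned to -0.08 without K replicate 1. Mgst1 was the one gene of the 9 with a lower mean with N. It had 7.36, 7.66 and 7.47 on the N arrays, and 8.33, 7.74 and 6.98 on the K arrays. The K arrays spread over more than a log2 unit (SD 0.68, against 0.15 for the N arrays), with the N arrays inside that range. The log2FC of Mgst1 was -0.18 (standard error 0.29), with 0.14 without K replicate 1 and -0.53 without K replicate 3. Mgst3 had 6.47, 7.05 and 6.07 with N and 5.97, 6.43 and 6.95 with K, and each group spread as widely as the other (SD 0.49 for both). Its log2FC was 0.08 (standard error 0.29), with -0.18 without N replicate 2 and -0.16 without K replicate 1, so its sign rests on single arrays.

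Leaving out each array in turn kept the sign in all 6 mu class genes. In the 5 whose groups did not overlap no other outcome was possible, so only Gstm5 could have turned. The lowest and highest log2FC so reached were 0.39 and 0.54 for Gstm1, 0.14 and 0.20 for Gstm2, 0.42 and 0.62 for Gstm4, 0.19 and 0.40 for Gstm5, and 0.28 and 0.51 for Gstm7. Gsta4, Mgst1 and Mgst3 each reached values on both sides of 0. With 3 arrays against 3, the smallest two-sided p of an exact permutation test on 1 gene is 0.1, so none is given.

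**Figure D2:**
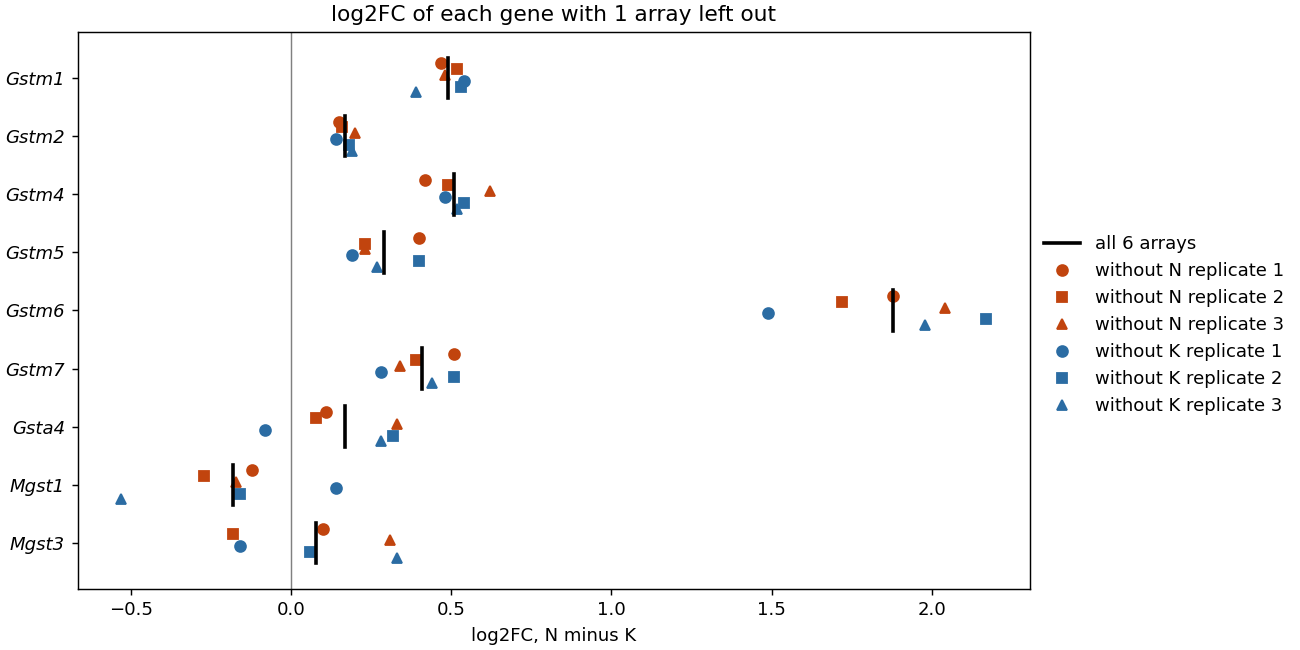
Log2FC of N minus K (horizontal axis) of the 9 genes over all 6 arrays (black bars) and with 1 array left out (points; colour and shape name the array). Gstm6 runs from 1.49 to 2.17, the other mu class genes stay above 0, and Gsta4, Mgst1 and Mgst3 have points on both sides of 0. Where the groups do not overlap, as in all mu class genes but Gstm5, no point can cross 0.

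The mu class genes lie side by side. On GRCm38.p6 they fill 149 kb of chromosome 3 from 107895854 to 108045179, in the order Gstm5, Gstm7, Gstm6, Gstm3, Gstm2, Gstm1 and Gstm4. Gstm6 spans chr3:107938847-107953641 and Gstm1 chr3:108012250-108017973. Gsta4 lies on chromosome 9 from 78191966 to 78209349, Mgst1 on chromosome 6 from 138140527 to 138156755 and Mgst3 on chromosome 1 from 167371966 to 167393841. In RefSeq, 4933431E20Rik, a long noncoding RNA, overlaps the start of Gstm5. To see whether the surrounding genes moved too, all measured genes within 200 kb of either end were taken, a window chosen after the values of the family were seen. These 12 neighbours had log2FC from -0.29 (Amigo1, a neuronal adhesion protein gene) to 0.33 (Ahcyl1, which encodes an inhibitor of the IP3 receptor), with a median of -0.02. Of the 12, 6 were above 0, against 43.0% of all genes, and 0 were called, against 0.155% of all genes. In 1 of them, Ahcyl1, every N array lay above every K array, and in 1, Gpr61, every N array lay below. Over all genes these patterns were met by 5.78% and 7.55%. Csf1, which encodes a macrophage growth factor, had 0.03 and Gnai3, an inhibitory G protein alpha subunit gene, -0.13. The median of the 6 mu class members was 0.45. They were chosen with this difference known, so nothing is read from the contrast with their neighbours.

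**Figure D3:**
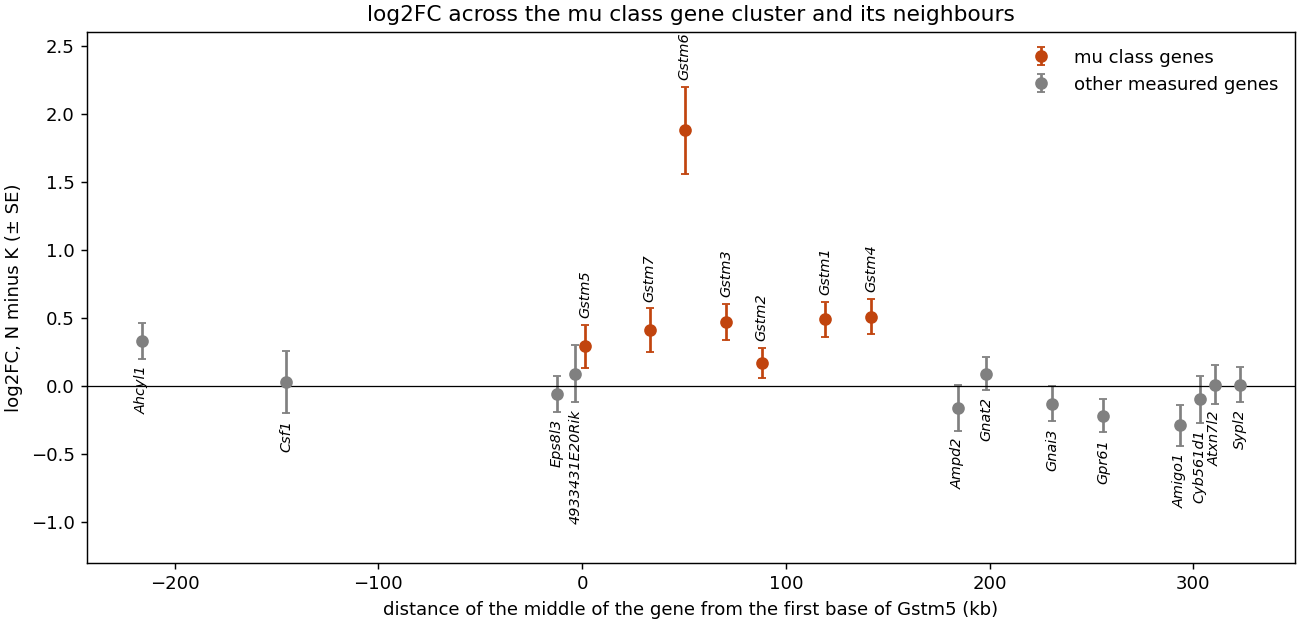
Log2FC of N minus K with its standard error (vertical axis, n = 3 arrays per group) against the distance in kb from the first base of Gstm5 (horizontal axis) for the 7 mu class genes and 12 neighbours. All 7 mu class genes lie above 0 with Gstm6 at 1.88, and the neighbours lie between -0.29 and 0.33. The point of Gstm3 is from a cluster whose probe set number falls outside those of the row, and its other cluster gave 0.13.

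Gstm3, the remaining mu class gene of the row, was not among the genes chosen. It was read from a cluster with 7.82, 7.57 and 7.45 on the N arrays and 7.17, 7.20 and 7.06 on the K arrays, which gave a log2FC of 0.47 (standard error 0.13, adjusted p = 0.350 from limma). The groups did not overlap. A second cluster with the same name gave 0.13 (standard error 0.14), so the clusters of Gstm3 disagreed in size. The probe set number of the second falls between those of Gstm6 and Gstm2, as Gstm3 itself does in the row. That of the first falls outside the numbers of the row. By this numbering the second, with 0.13, is the one that reads the gene of the row, though probe positions were not looked up. The plot along the chromosome shows the first, so its point for Gstm3 may not belong to that position. Mu class genes resemble each other in sequence, and how far the probes of one also bind RNA of another was not tested.

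The stretches before the annotated gene are shown for 4 members. Gstm6, with the widest difference, and Gstm1, another gene whose groups did not overlap, are set beside both members with a match before the gene. A match is to the core of an antioxidant response element, TGACNNNGC, on either strand. The stretches are RefSeq sequence of GRCm38.p6, 5′ to 3′ along the gene, and end at the last base before the annotated gene. That of Gstm6 has 75 bases and the others 100, since the windows of Gstm6 reached no further. Capitals mark the matches to the core, which in Mgst1 lies on the opposite strand.
Gstm6 (chr3:107953642-107953716, minus strand): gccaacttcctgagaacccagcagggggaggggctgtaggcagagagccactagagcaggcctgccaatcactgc
Gstm1 (chr3:108017974-108018073, minus strand): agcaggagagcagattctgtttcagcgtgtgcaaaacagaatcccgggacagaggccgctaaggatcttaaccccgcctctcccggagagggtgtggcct
Gstm5 (chr3:107895754-107895853, plus strand): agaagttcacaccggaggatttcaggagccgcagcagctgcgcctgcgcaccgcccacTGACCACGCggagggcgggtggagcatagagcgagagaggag
Mgst1 (chr6:138140427-138140526, plus strand): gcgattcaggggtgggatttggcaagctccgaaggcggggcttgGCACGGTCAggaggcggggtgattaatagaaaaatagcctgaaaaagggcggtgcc

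Windows of 300 bases, 250 before and 50 after a start, were searched for 8 of the 9 members, with 14 windows since several genes have more than 1 start. The core was found in 3 of the 8, Gstm5, Gstm7 and Mgst1, and in 14.0% of all 27025 genes of the table. Counted by window, it was found in 3 of the 14 and in 12.4% of all 32851 windows. The match of Gstm7 lies inside the annotated gene, before a second start. None of the windows of Gstm6, Gstm1, Gstm2 or Gstm4 held the letters. For Gstm6 only 75 bases outside the annotated gene were searched. The cyclic AMP response element, TGACGTCA, was found in 0 of the 8 members and in 2.03% of all genes. The 2 motifs share their first 4 letters. A match is a run of letters and does not show binding.

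Outside the family, the pathway was read from 6 lists of related genes, with 105 of 114 genes measured. None of the 105 was called over all genes by limma or by an ordinary linear model, and 15 had an unadjusted p under 0.05. Of the 105, 74 had a log2FC above 0, the median was 0.09, and in 15 every N array lay above every K array while in 2 every N array lay below. Over all genes, 43.0% had a log2FC above 0 and the median was -0.03. Every N array lay above every K array in 5.78% of all genes and below in 7.55%, and 1702 of 19937 had an unadjusted p under 0.05. The counts of each list below stand beside these same shares. The genes named next are among those with the smallest p in each list, apart from Gstp1, Nfe2l2 and Keap1, which were chosen after their values were seen.

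Among 17 other glutathione transferase genes and relatives, 10 had a log2FC above 0, with a median of 0.09 and a range from -0.20 to 0.51. Gsta3, an alpha class gene, had 6.17, 5.88 and 5.73 with N and 5.30, 5.38 and 5.58 with K, a log2FC of 0.51 (standard error 0.15, adjusted p = 0.368 from limma). All its values lay below 6.34, the median of all clusters, and whether they were above background was not measured. The zeta class gene Gstz1, whose enzyme also acts in tyrosine breakdown, had 0.44 (standard error 0.23). Ltc4s, the leukotriene C4 synthase gene and a relative of the microsomal genes, had -0.20 (standard error 0.13), with every N array below every K array. Gstp1, the pi class gene, had 10.75, 10.95 and 10.84 with N and 10.72, 10.79 and 10.81 with K, a log2FC of 0.08 (standard error 0.12). The difference of the pi class gene was thus within the spread of its arrays. Gsta1, Gsta2 and Gstp2 had no cluster of their own.

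Of 18 genes of glutathione synthesis and breakdown, 12 had a log2FC above 0 and the median was 0.09. Gclc, the catalytic subunit of the enzyme that limits glutathione synthesis, had 9.41, 9.19 and 9.20 with N, against 8.57 to 9.27 with K, a log2FC of 0.32 (standard error 0.18). Its K arrays spread widely (SD 0.36) and overlapped the N arrays. Ggct, a gene of glutathione breakdown, had 0.55 (standard error 0.28), Lap3, a leucine aminopeptidase gene, 0.40 (standard error 0.15), and Cbs, which feeds cysteine into the pathway, 0.36 (standard error 0.14).

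Of 26 genes for peroxidases, reductases and thioredoxins, 20 had a log2FC above 0 and the median was 0.07. Gpx3, the secreted glutathione peroxidase gene, had 6.28, 6.79 and 6.35 with N and 5.32, 5.80 and 5.41 with K. Its groups did not overlap, with a log2FC of 0.97 (standard error 0.18, adjusted p = 0.135 from limma). All its K values lay below 6.34, the median of all clusters, and whether they were above background was not measured. Gpx1, the cytosolic glutathione peroxidase gene, had 8.06, 7.97 and 8.00 with N, against 7.92 on K replicate 2, 7.01 on K replicate 3 and just under that on K replicate 1. On K replicate 2 it was thus near the N arrays, and its log2FC of 0.70 (standard error 0.24) became 1.01 without that array, with an adjusted p of 0.0490 in limma. Glrx, a glutaredoxin gene, had 0.52 (standard error 0.21) and Prdx1, a peroxiredoxin gene, 0.49 (standard error 0.22).

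Of 21 genes of the NRF2 pathway, 17 had a log2FC above 0, the median was 0.12, and in 5 every N array lay above every K array, as in 5.78% of all genes. Nqo1, a quinone reductase gene and a standard NRF2 target, had 6.87, 6.46 and 7.14 with N and 5.61, 5.61 and 5.98 with K. The lowest N array was above the highest K array, and the log2FC was 1.09 (standard error 0.19, adjusted p = 0.108 from limma), or 2.13-fold. All K values of Nqo1 lay below 6.34, the median of all clusters. Whether they were above background was not measured, so this fold holds for the deposited values only. Hmox1, the heme oxygenase gene, had 9.92, 10.00 and 10.46 with N and 9.15, 9.29 and 9.79 with K, a log2FC of 0.72 (standard error 0.21). Fth1, the ferritin heavy chain gene, had 0.61 (standard error 0.20) and Me1, the malic enzyme gene, 0.42 (standard error 0.13). Nfe2l2, which encodes NRF2 itself, had 0.21 (standard error 0.14), and Keap1, its inhibitor, had means of 6.48 on both the N and the K arrays.

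The list for export of the conjugates and their last steps had the median nearest to 0 of the 6 lists, with 5 of 10 genes above 0 and a median of 0.01. Abcc4, an efflux pump gene, had 0.41 (standard error 0.15), while Abcc3, Abcc2 and Nat8 had -0.33, -0.21 and -0.19. Of 13 genes of reactive aldehyde metabolism 10 had a log2FC above 0, with a median of 0.19. Aldh9a1, an aldehyde dehydrogenase gene, had 7.31, 7.23 and 7.37 with N and 6.79, 6.90 and 6.84 with K. Both groups were tight, and the log2FC was 0.46 (standard error 0.11, adjusted p = 0.267 from limma). Aldh2, the mitochondrial form, had 0.51 (standard error 0.15) and Akr1b8, an aldo-keto reductase gene, 0.36 (standard error 0.17). All values of Akr1b8, Abcc2, Abcc3 and Nat8, and the K values of Aldh2, lay below 6.34, the median of all clusters. Whether these were above background was not measured. Aldh1a1, whose enzyme makes retinoic acid, had 8.90, 8.93 and 8.33 with N and 9.25, 9.45 and 9.05 with K. It went the other way, with a log2FC of -0.53 (standard error 0.19) and every N array below every K array.

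**Figure D4:**
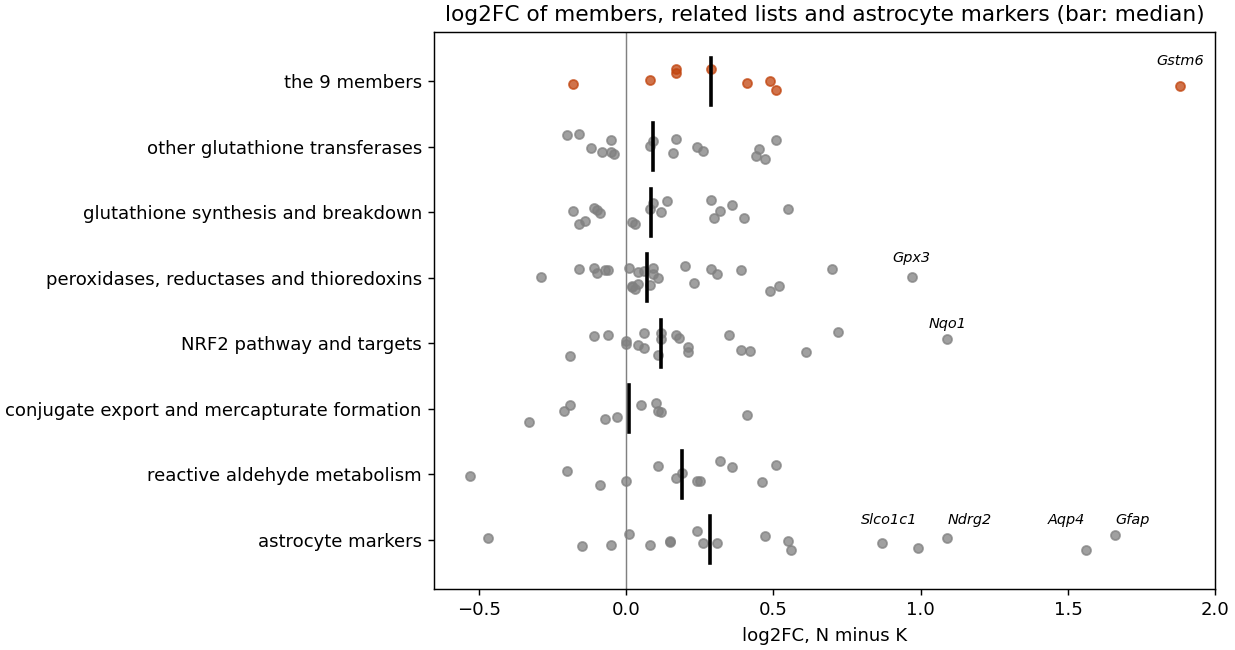
Log2FC of N minus K (horizontal axis) of each measured gene, as points, with a bar at the median, for the 9 members, the 6 related lists and the 18 astrocyte markers. The members' median of 0.29 equals that of the astrocyte markers and lies above those of the related lists, 0.01 to 0.19.

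Among the marker lists of cell types, the astrocyte list had the median farthest from 0. The 18 astrocyte markers had a mean level of 8.85 to 9.18 on the N arrays and 8.54 to 8.58 on the K arrays, 15 of 18 had a log2FC above 0, and the median was 0.29. In 10 of them every N array lay above every K array, as in 5.78% of all genes. Gfap, the astrocyte intermediate filament gene, was the only one of 89 measured markers that was called. It was higher with N, with a log2FC of 1.66 (standard error 0.21, adjusted p = 0.0358 from limma), a call that was lost with any 1 array left out. The part of the astrocyte markers in the values of the mu class genes was not tested. In bulk RNA more cells of a type and more RNA per cell cannot be told apart. The 11 measured precursor markers had a median of 0.01. Among them Sox2 averaged 10.16 ± 0.26 with N and 9.90 ± 0.27 with K, and Nes 8.24 ± 0.20 with N and 8.76 ± 0.23 with K (SD, n = 3 each). Dcx, of neuroblasts, averaged 5.44 ± 0.05 with N and 5.51 ± 0.11 with K, below the median of all clusters of 6.34. These single genes do not stand for their lists. Among the 11 precursor markers 7 had a log2FC above 0. In 2, Vim and Prom1, every N array lay above every K array, and in 1, Nes, below. Among the 12 neuron and neuroblast markers 7 had a log2FC above 0. In 2, Snap25 (0.81) and Tubb3 (0.47), every N array lay above, and in 1, Map2 (-0.32), below. Over all genes 43.0% had a log2FC above 0, and 5.78% and 7.55% had these 2 patterns. The medians of the 7 other marker lists, those of neurons, oligodendrocytes, microglia, endothelial cells, pericytes, ependymal cells and choroid plexus, lay between -0.14 and 0.09.

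The genes most like the family were sought by the root-mean-square difference, over the 6 arrays, between a gene's centred values and the mean centred values of the 9 members, among genes brighter than the median gene. The mean profile of the 9 was 0.19, 0.36 and 0.09 on the N arrays and -0.39, -0.05 and -0.20 on the K arrays, so N replicate 2 was the highest array and K replicate 1 the lowest. Gstm6 carried much of this profile, with centred values of 0.94, 1.25 and 0.63 on the N arrays and -1.72, -0.37 and -0.73 on the K arrays. The mean of the other 8 was 0.09, 0.25 and 0.02 on the N arrays and -0.22, -0.01 and -0.13 on the K arrays. The genes named next are thus near a mean that Gstm6 widens, and nearness to the other 8 alone was not computed. The nearest was Atg7, an autophagy enzyme gene, with a difference of 0.0468 log2 units, followed by Josd1 with 0.0496, Exoc3 with 0.0546, Ncam1 with 0.0665 and Ptpn2 with 0.0677. Atg7 had 7.68, 7.75 and 7.59 with N and 7.06, 7.42 and 7.34 with K. None of the 5 was called by limma over all genes. All 5 had an unadjusted p under 0.05 in limma, as had 1702 of 19937 genes. They were picked for nearness to a profile that is higher on the N arrays, so these p-values follow from the choice.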

How the data were processed

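RNA of 6 neurosphere samples was hybridised to Affymetrix whole-transcript arrays for mouse genes, 1 per sample. The authors took the scans into Partek Genomics Suite, and the deposited values are log2 values per transcript cluster from RMA (background correction, normalization between arrays, summary); versions and settings are not given in the sources used here. All 6 columns were matched to samples by the labels, which also gave the groups. No column was left unused. That replicates came from separate cultures rests on the labels' wording, "biological replicate".

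Of 34760 clusters 21640 carried 1 gene symbol, and for each of 19937 genes the one with the highest mean was used. Differences between N and K were computed with limma 3.58.1 in R 4.3.3 (lmFit, eBayes, no covariates, 4 residual and 4.59 prior degrees of freedom), with Benjamini-Hochberg adjustment over all genes and a threshold of 0.05. Counts and medians describe each list; no set test was run. The number of arrays limits the precision. Simulated data with known changes were used to test the fit. Tables and figures were made with Python 3.11.15, pandas 2.3.3 and matplotlib 3.10.9, and gene positions and sequences came from RefSeq tables of GRCm38.p6.

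The members and lists were chosen with earlier results of these data known. Named genes are all members, in each related list the called genes and up to 4 with the smallest p, Gfap, Nes, Sox2 and Dcx with any called marker, and the 5 nearest profiles. Upstream sequences are shown for genes with a motif match before the gene, and for Gstm6 and Gstm1, added after their values were seen. Other genes (Gstp1, Nfe2l2, Keap1, the neighbours of the mu class genes, and the markers Vim, Prom1, Snap25, Tubb3 and Map2) were chosen after their values were seen. As alternatives, arrays were left out in turn, the replicate number was added as a block, moderation was dropped or made robust with a trend, dim genes were filtered, arrays were rescaled by quantile, median or cyclic loess, and clusters were averaged per gene or all tested.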

Additional observations from a re-analysis of the deposited data

How the results depend on the processing

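The number of genes called over the whole table was 31. It was 0 with all transcript clusters tested, 1 without moderation and 3 with arrays centred on the median. It was 12 with quantile normalization, 12 with cyclic loess normalization and 41 with the replicate number as a block (32 higher with N and 9 with K). With 1 array left out it ran from 0 to 21. Some of these settings have fewer arrays or more tests, and what moved the number was not tested. The log2FC of the members kept their sign in all settings other than leaving out 1 array, where Gsta4 ran from -0.08 to 0.33, Mgst1 from -0.53 to 0.14 and Mgst3 from -0.18 to 0.33 (-0.16 without K replicate 1). Every N array lay above every K array in 5 of the 9 members in the main setting. This count was 4 after centring the arrays on the median and 4 after cyclic loess normalization. With genes above the median of all clusters only, Gstm2 and Gstm4 dropped out. Of the 9 members 7 were left, and 3 of the 7 had every N array above every K array. Gstm6, one of the 3, passed this filter through its N arrays, since all its K arrays lay below the limit, so the count says nothing of stability. The labels number the replicates but do not say that same-numbered arrays are paired. Deviations of same-numbered arrays correlated at 0.0434, 0.0429 and 0.121, and 4 of 6 arrays correlated best with their own number. These values are too few to decide on a pairing. With the replicate number as a block in limma, 1 member was called, Gstm6 (adjusted p = 0.0414), and 2 related genes, Nqo1 (0.0446) and Gpx3 (0.0475). The number of related genes called was 0 or 1 with 1 array left out, the 1 being Gpx1 without K replicate 2. The call of Gfap was also lost under 5 of the other alternatives, with adjusted p from 0.0516 to 0.486. In all, 481 of 500 values for 34 single genes kept their direction and their side of the threshold. Of these genes only Gfap was called with all arrays in the main setting. For the others keeping their side means staying uncalled, so the total says little of stability. With 3 arrays per group, the differences of Gstm2, Gstm5, Gsta4, Mgst1 and Mgst3 were in size under 2 of their standard errors.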
